A study of Homo sapiens with 4 samples.

Results

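Septin genes were followed in T24, a human bladder carcinoma cell line, as poly(A) RNA after treatment with siRNA against NSUN2 (siNSUN2) or with control siRNA (siControl). The members are the 9 rows of the count table whose current or older symbol is SEPTIN2, SEPTIN3, SEPTIN5, SEPTIN6, SEPTIN7, SEPTIN8, SEPTIN9, SEPTIN10 or SEPTIN11, out of 62893 gene rows in all, and all 9 passed the filter on low counts. SEPTIN7 was chosen by its large fall in CPM in this same comparison, so its difference is given as a description with no test, and it supports nothing else. The other 8 were taken by family name.

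NSUN2 encodes a methyltransferase that places 5-methylcytosine on tRNAs and other RNAs. The 4 libraries form 2 groups of 2: siControl replicates 1 and 2, which the series calls wildtype, and siNSUN2 replicates 1 and 2. Both groups are the same cell line, and the sources used here do not give the sequence of the siRNAs, their dose or the time after treatment. Nothing in the labels says whether replicates came from separate cultures, so the p-values cover the variation among these 4 libraries alone, and that may be technical.

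Septins are GTP-binding proteins that assemble end to end into short rods and then into filaments and rings under the plasma membrane. They scaffold the contractile ring of dividing cells and line actin bundles and some microtubules. Human septins fall into 4 homology groups, named here after SEPTIN2, SEPTIN3, SEPTIN6 and SEPTIN7. A rod takes its subunits from these groups, members of a group can stand in for each other, and SEPTIN7, alone in its group, is a core subunit of the common rods.

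Library totals ran from 33633249 to 215936965 gene counts, a 6.42-fold range, so that 1 CPM (read counts divided by library size in megareads, with sizes scaled by TMM factors) stands for 33.6 to 216 counts. The siRNA target itself, NSUN2, had 281 and 284 CPM in siControl and 29.6 and 30.1 CPM in siNSUN2. The simple-epithelium keratins KRT7, KRT8 and KRT18 were at 108 CPM or more in every library, whereas KRT19, EPCAM and CDH1 stayed below 0.1 CPM. The 6 urothelial markers summed to 19.1 CPM or less in siControl and to 25.4 CPM or less in siNSUN2, higher in both siNSUN2 libraries than in both siControl libraries, and 2 of them reached 1 CPM in a library. PPARG, a nuclear receptor, had 14.4 and 13.7 against 23.5 and 22.5 CPM, and GATA3 had 0.494 and 0.381 against 0.109 and 0.263 CPM. Of the uroplakins, which define differentiated urothelium, UPK1B had 3.86 and 4.18 against 1.62 and 2.07 CPM, UPK1A and UPK2 stayed below 0.3 CPM and UPK3A had no count. The mesenchymal markers VIM, CDH2 and FN1 summed to 1507 and 1535 CPM in siControl and to 2502 and 2489 CPM in siNSUN2. Summed markers of leukocytes, endothelium, red cells and fibroblasts reached at most 10.6 CPM in any library, the highest value being endothelial in siNSUN2 replicate 2, where VWF gave 8.73 CPM. The part of these differences in the septin values was not tested.

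SEPTIN7 (ENSG00000122545, chr7:35800932-35907105 on the plus strand, build GRCh38 with GENCODE release 29) stood at 299.0 and 299.4 CPM in the siControl libraries and at 55.8 and 57.3 CPM in the siNSUN2 libraries. Both siNSUN2 libraries lay far below both siControl libraries, and the libraries of a group were close to each other. The means were 299 ± 0.268 CPM and 56.5 ± 1.09 CPM (SD, n = 2 each), so that 18.9% of the siControl level remained. The log2 fold change was −2.40 (SE 0.041), or 5.29-fold lower. These values rest on 12706 and 63683 counts in siControl and 5121 and 1962 in siNSUN2, so counting error is small beside them. Of the 16889 genes tested, 81 had a lower log2 fold change. Among the 1187 genes with an average level at least that of SEPTIN7, only VDAC1 did. That average covers both groups, so a fall lowers it. NSUN2, at a log2 fold change of −3.24, is left out by it, with an average log2 CPM of 7.29 against 7.48 for SEPTIN7. In bulk RNA of a culture, fewer cells with a transcript and less transcript per cell cannot be told apart.

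**Figure D1:**
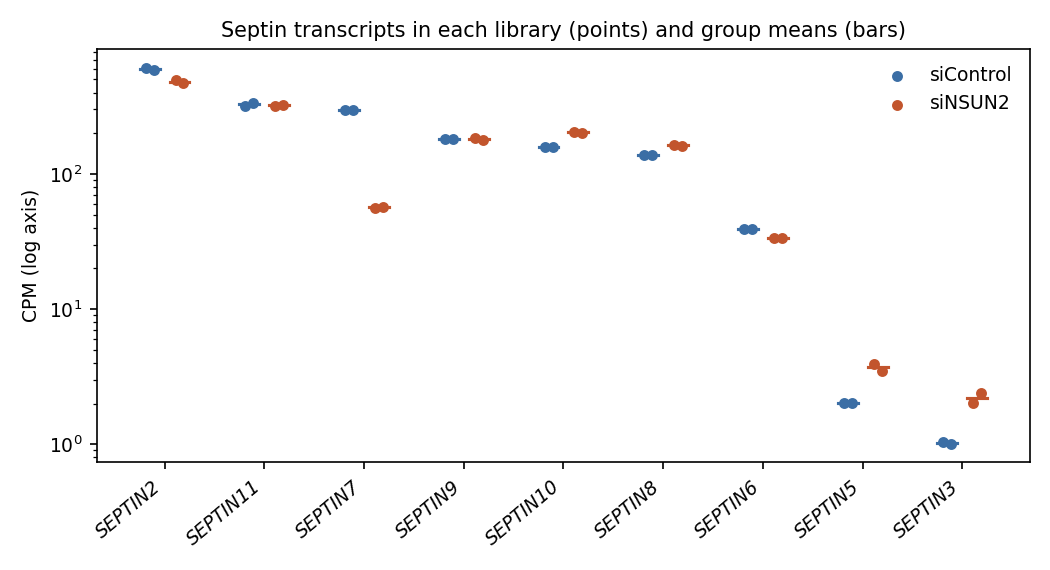
CPM of each septin gene on a log axis, with the 4 libraries as points and the mean of each group (n = 2) as a short bar, ordered by the siControl mean. SEPTIN7 goes from 299 to 56.5 CPM, while the next largest fitted fold of a septin was 2.15, for SEPTIN3.

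Of the 8 other septins, 4 rose (SEPTIN3, SEPTIN5, SEPTIN8 and SEPTIN10), 2 fell (SEPTIN2 and SEPTIN6) and 2 did not pass the test (SEPTIN9 and SEPTIN11) in edgeR's quasi-likelihood test with Benjamini-Hochberg adjustment over all genes tested. Over all 16889 genes, 27.1% rose and 25.5% fell, 52.6% in all, so a call was common in this comparison and 6 called of 8 says little about the septins as such. The CPM of the groups did not overlap for the same 6 septins, against 74.6% of all genes tested. Their median log2 fold change was 0.13, against 0.03 for all genes tested. The septins did not move one way, and the SEPTIN2 and SEPTIN6 groups each held a gene that rose and a gene that fell. In the SEPTIN2 group the gene that rose was SEPTIN5, whose counts are sparse and uncertain, as given below.

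In earlier work on these data the fold changes went with transcript GC content, so the log2 fold change with smooth trends on transcript GC content and length taken off each library (GC and length offsets) is given where it ends a call, turns a direction or moves a value by over 1.5 times. For NSUN2, HDLBP, ANLN, VDAC1, MRPS14, VTA1 and LRRC8B the value with the offsets was not looked at, so its absence does not mean that it stayed the same. SEPTIN7, with a GC content of 39.3% in its longest coding transcript, had a log2 fold change of −2.15 with the offsets.

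**Figure D2:**
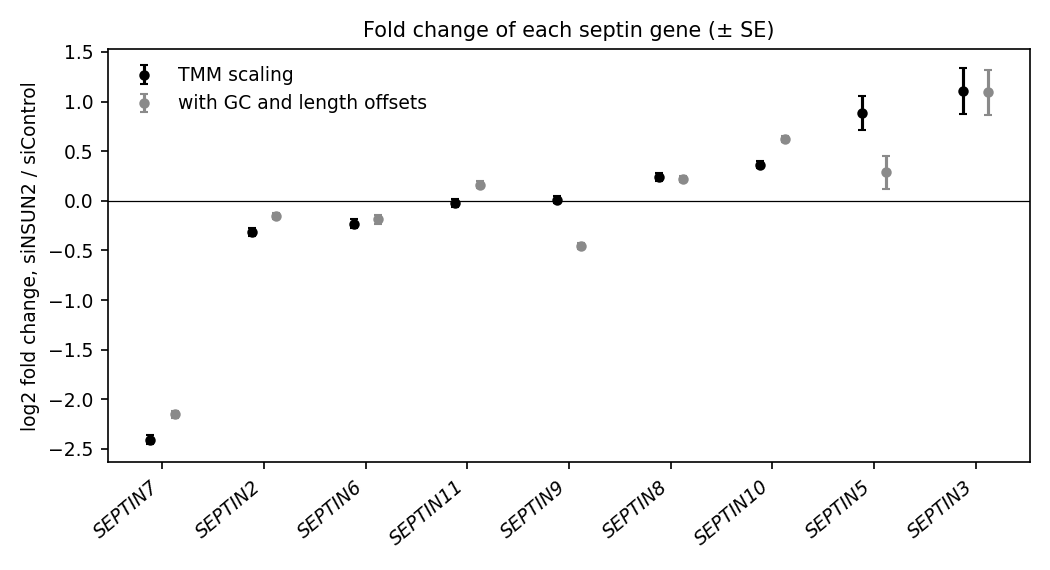
Log2 fold change of siNSUN2 over siControl for each septin gene, with bars of 1 SE, under TMM scaling (black) and with GC and length offsets (grey). SEPTIN7 is the lowest under both, at −2.40 and −2.15, and SEPTIN9 is the gene that the offsets move the most after SEPTIN5, from 0.01 to −0.46.

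In the SEPTIN2 group, SEPTIN2 (ENSG00000168385, chromosome 2), the most abundant septin of these cells and a subunit of the common rods, had 607 and 590 CPM in siControl and 494 and 471 CPM in siNSUN2. Both siNSUN2 libraries were lower, and the groups did not overlap. SEPTIN2 fell by 0.31 on the log2 scale (SE 0.042, adjusted p = 1.91e-04), and by 0.15 with the offsets (adjusted p = 0.00648). Exons of SEPTIN2 overlap those of HDLBP on the other strand, and 1.2% of the 150-base stretches of its longest coding transcript are shared with HDLBP. HDLBP rose from 678 ± 19.6 to 830 ± 51.8 CPM (SD, n = 2 each), opposite to SEPTIN2, and the sources used here do not say whether the counting used strand.

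SEPTIN5 (ENSG00000184702, chromosome 22), a septin best known from neurons and platelets, where it binds secretory vesicles, was sparse in these cells, with 2.02 and 2.01 CPM in siControl and 3.92 and 3.51 CPM in siNSUN2. The siNSUN2 libraries were higher and did not overlap the controls. It rose by 0.88 on the log2 scale (SE 0.17, adjusted p = 0.00207). The call was lost with the offsets, at a log2 fold change of 0.29 (adjusted p = 0.20), and this transcript has the highest GC content of the 9, at 63.6%. Of the 2092 stretches of 150 bases in its longest coding transcript, 1944 (92.9%) also occur in transcripts of ENSG00000284874. That gene of GENCODE release 29 overlaps SEPTIN5 on the same strand and has no row among the deposited counts. With GP1BB, also overlapping on the same strand, SEPTIN5 shares 226 (10.8%), and GP1BB had 0 counts in every library. Which gene the reads from the shared stretches stem from cannot be told, so the SEPTIN5 counts are uncertain.

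The SEPTIN6 group holds 4 of the members, which are interchangeable at the same place of a rod. SEPTIN10 (ENSG00000186522, chromosome 2) had 158 and 157 CPM in siControl and 203 and 202 CPM in siNSUN2, with no overlap between the groups. It rose by 0.36 on the log2 scale (SE 0.038, adjusted p = 3.58e-05), and by 0.62 with the offsets (adjusted p = 5.05e-06). Its adjusted p was 7.27e-04 or less under every alternative tried.

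SEPTIN8 (ENSG00000164402, chromosome 5) had 138 and 139 CPM in siControl and 164 and 162 CPM in siNSUN2. It was higher in both siNSUN2 libraries, by 0.24 on the log2 scale (SE 0.039, adjusted p = 6.13e-04). SEPTIN6 (ENSG00000125354, chromosome X), the namesake of the group, went the other way at a lower level, from 39.3 and 39.2 CPM in siControl to 33.5 and 33.6 CPM in siNSUN2. It fell by 0.23 on the log2 scale (SE 0.047, adjusted p = 0.00272), and the replicates of each group differed by less than 0.2 CPM.

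SEPTIN11 (ENSG00000138758, chromosome 4), the most abundant of this group, had 320 and 336 CPM in siControl and 320 and 325 CPM in siNSUN2. The groups overlapped, and no change was called (log2 fold change −0.02, SE 0.041, adjusted p = 0.667). Without siControl replicate 1 it was at −0.13, in a fit where log2 fold changes over all genes shifted by a median of −0.0669. With the offsets SEPTIN11 was called higher, at 0.16 (adjusted p = 0.00577), so its direction depends on the processing. Within the SEPTIN6 group, then, SEPTIN10 and SEPTIN8 were higher, SEPTIN6 was lower and SEPTIN11 had no stable direction.

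In the SEPTIN3 group, SEPTIN9 (ENSG00000184640, chromosome 17), which takes the place of this group in the longer rods of most tissues and bundles actin, had 180.9 and 180.7 CPM in siControl and 185 and 180 CPM in siNSUN2. The groups overlapped, and no change was called (log2 fold change 0.01, SE 0.039, adjusted p = 0.821). With the offsets it was called lower, at −0.46 (adjusted p = 1.92e-05), the GC content of its transcript being 60.1%. Its sign also turned, with no call, under 5 other alternatives, at −0.053 to −0.0064.

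SEPTIN3 (ENSG00000100167, chromosome 22), a septin of neurons, was the scarcest member, with 1.04 and 1.01 CPM in siControl and 2.03 and 2.40 CPM in siNSUN2. Both siNSUN2 libraries were higher. It rose by 1.11 on the log2 scale (SE 0.23, adjusted p = 0.00296) on 44 to 215 counts per library. The 2 largest rises among the septins, those of SEPTIN3 and SEPTIN5, were of transcripts at under 4 CPM. With the offsets SEPTIN3 still came first, at 1.09, but SEPTIN10 came next, at 0.62.

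To set the septins side by side, CPM was divided by the length of the longest coding transcript. In siControl the order per kilobase (kb) was SEPTIN2 at 162 ± 3.39 CPM per kb (SD, n = 2), SEPTIN7 at 68.0 ± 0.061, SEPTIN11 at 58.7 ± 2.05, SEPTIN10 at 50.9 ± 0.240, SEPTIN9 at 40.6 ± 0.042 and SEPTIN8 at 31.4 ± 0.210 CPM per kb. SEPTIN6 followed at 8.37, SEPTIN5 at 0.899 and SEPTIN3 at 0.220 CPM per kb. Neighbours in this order differed by more than the spread between the 2 libraries. In siNSUN2 cells SEPTIN7 stood at 12.9 ± 0.248 CPM per kb, below SEPTIN8 and above SEPTIN6. The rank depends on the length used: per kb of all annotated exons, SEPTIN7 stood at 27.4 CPM per kb, behind SEPTIN10 at 38.1 and SEPTIN11 at 33.5, in siControl, and at 5.18, just behind SEPTIN6 at 5.37, in siNSUN2.

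Summed over the 9 genes, septin transcripts made up 422 and 420 CPM per kb in siControl and 357 and 350 CPM per kb in siNSUN2. Without SEPTIN7 the sums were 354 and 352 against 345 and 337 CPM per kb, so most of the lower total lay in SEPTIN7 itself. The share of SEPTIN7 was 16.1% and 16.2% in siControl and 3.55% and 3.72% in siNSUN2. The SEPTIN6 group made up 35.1% and 35.9% in siControl and 46.9% and 47.9% in siNSUN2, and the SEPTIN2 group 39.1% and 38.1% against 37.8% and 36.8%. Per kb there were 2.18 and 2.22 transcripts of the SEPTIN6 group for each of SEPTIN7 in siControl, and 13.2 and 12.9 in siNSUN2. Per kb of all annotated exons, a length tried after seeing the data, these ratios were 3.47 and 3.52 in siControl and 21.2 and 20.7 in siNSUN2, and the share of SEPTIN7 was 12.5% and 12.6% against 2.61% and 2.73%. These shares and ratios contain the value that SEPTIN7 was picked for, and they describe transcripts, not protein.

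**Figure D3:**
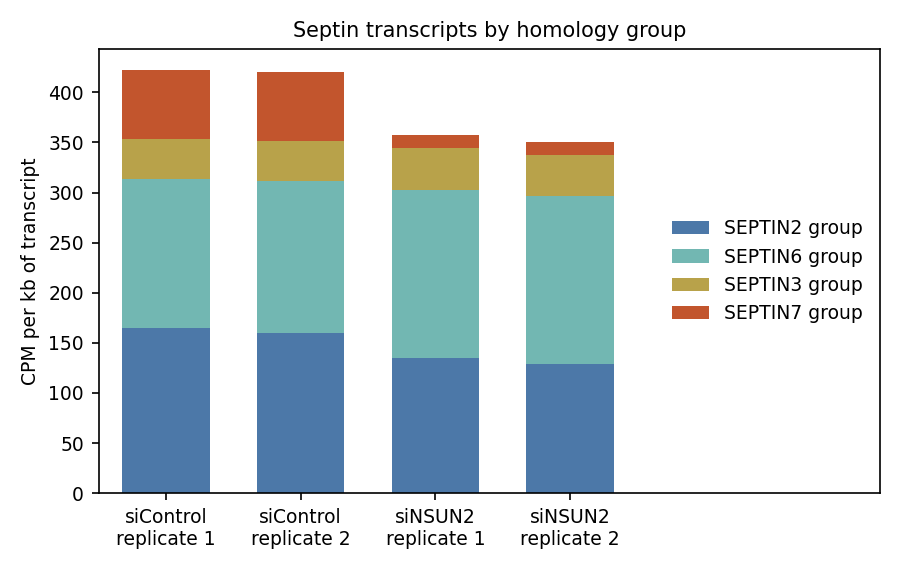
Summed CPM per kb of the septin transcripts in each of the 4 libraries, stacked by homology group from 0. The SEPTIN7 segment shrinks from 68.0 to 12.9 CPM per kb between the group means, while the SEPTIN6 group goes from 149 to 168 and the SEPTIN2 group from 163 to 132.

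The genome holds many copies of SEPTIN7, and reads from them can go astray. Beside the members, 34 rows of the table have a symbol that starts with SEPTIN: 4 further family genes, 27 pseudogenes, 13 of them of SEPTIN7, and 3 antisense or divergent transcripts. Of these rows, 11 had no count in any library. SEPTIN1, SEPTIN4, SEPTIN12 and SEPTIN14 stayed below 0.2 CPM in every library. No 150-base stretch of the longest coding SEPTIN7 transcript occurs in an annotated transcript of another gene. Shorter exact runs are shared with its pseudogenes, the longest being 112 bases, with SEPTIN7P7. Exons of SEPTIN7 overlap those of ENSG00000274328 on the other strand, and the strand setting of the counting is not known.

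SEPTIN7P2, a transcribed pseudogene on chromosome 7 whose longest exact run in common with SEPTIN7 is 94 bases, had 10.4 and 10.2 CPM in siControl and 9.26 and 11.3 CPM in siNSUN2. The groups overlapped, and no change was called (log2 fold change −0.01, SE 0.11, adjusted p = 0.955). SEPTIN7P14, with a longest common run of 55 bases, had 9.25 and 9.40 CPM in siControl and 7.74 and 8.50 CPM in siNSUN2 and was not called (log2 fold change −0.20, SE 0.097, adjusted p = 0.112). With the offsets both turned upward with no call, to 0.13 for SEPTIN7P2 (adjusted p = 0.397) and 0.14 for SEPTIN7P14 (adjusted p = 0.304). Neither of the 2 most abundant pseudogenes was called, and their difference from SEPTIN7 was not itself tested.

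Sparse processed pseudogenes gave other values. SEPTIN7P6, chosen after its values were seen, had 0.588 and 0.931 CPM in siControl and 0.054 and 0.292 CPM in siNSUN2, on 5 to 198 counts, and was called lower (log2 fold change −2.42, SE 0.76, adjusted p = 0.0385). The call was lost without siControl replicate 2 (−2.00, adjusted p = 0.125), without siNSUN2 replicate 1 (−1.41, adjusted p = 0.0838) and with the offsets (−2.14, adjusted p = 0.0782). It was kept without siControl replicate 1 (−2.75, adjusted p = 0.00954) and without siNSUN2 replicate 2 (−3.79, adjusted p = 0.00407), so single libraries move this value widely. SEPTIN10P1 was called higher (log2 fold change 0.89, SE 0.32, adjusted p = 0.0446), the direction of SEPTIN10, and lost its call, at folds of the same sign, with each library left out in turn (0.62 to 1.05, adjusted p up to 0.298), with DESeq2 (0.87, adjusted p = 0.146) and in thinned libraries (0.67, adjusted p = 0.185). SEPTIN7P8 was too sparse to be tested, with 78, 21, 10 and 0 counts in siControl replicates 1 and 2 and siNSUN2 replicates 1 and 2. Reads at such copies may stem from the parent gene, so these counts are uncertain.

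The 3′ UTR of SEPTIN7 holds the 6-base word ACCCTA, which earlier work on these data found to go with lower fold changes. The search took 1 annotated 3′ UTR per coding gene, the longest with 50 bases or more, and its transcript strand only. In the 2812 bases of the SEPTIN7 3′ UTR it occurs 3 times, at bases 471, 524 and 1648 after the stop codon, the middle match being part of the longer AACCCTA. SEPTIN3, SEPTIN5 and SEPTIN6 have 1 match each, those of SEPTIN5 and SEPTIN6 being part of the longer ACCCTAA, and the other 5 septins have none. The 6 matches are shown with 12 bases on either side, 5′ to 3′ on the transcript, the word in capitals, from GENCODE release 29 (GRCh38), so that the sites of SEPTIN7 can be read beside those of the other septins that hold the word.
SEPTIN7 site 1 (chr7:35904752-35904781, plus strand): ctaacacagttgACCCTAttttttgacact
SEPTIN7 site 2 (chr7:35904805-35904834, plus strand): gaaaaaaaaaaaACCCTAtatgcttactgt
SEPTIN7 site 3 (chr7:35905929-35905958, plus strand): ttgaaatgttttACCCTAtttactttttaa
SEPTIN6 site (chrX:119617226-119617255, minus strand): taaaaaaaaaatACCCTAagtactctgttt
SEPTIN5 site (chr22:19722577-19722606, plus strand): agcccccagctgACCCTAatttattctcag
SEPTIN3 site (chr22:41997741-41997770, plus strand): ctcttcccacctACCCTAcctactcctacc

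Among the 12443 genes tested that have such a 3′ UTR, 21.4% hold the word at least once and 1.39% at least 3 times. Among the 1756 whose 3′ UTR is 0.8 to 1.2 times as long as that of SEPTIN7, these shares are 31.4% and 1.14%. The median log2 fold change was 0.09 for the 9786 genes with 0 matches, −0.12 for the 2038 with 1 match, −0.24 for the 446 with 2 and −0.37 for the 173 with 3 or more. With the offsets these medians were 0.03, −0.09, −0.16 and −0.23. The share of genes that fell went from 27.0% with 0 matches to 58.4% with 3 or more, and the median 3′ UTR length from 1109 to 6011 bases. SEPTIN7 had the lowest log2 fold change of the 173, but it was picked for its fall. The word itself came from earlier work on these same data, so the medians and this rank are descriptions and no test.

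The septins with 1 match did not share a direction: SEPTIN3 and SEPTIN5 rose and SEPTIN6 fell, and SEPTIN2, with none, fell. The longest annotated transcript of SEPTIN7P2 holds 0 matches and that of SEPTIN7P14 holds 1. A match is only a run of letters in an annotated 3′ UTR. Whether it has a part in the level of SEPTIN7 was not tested.

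**Figure D4:**
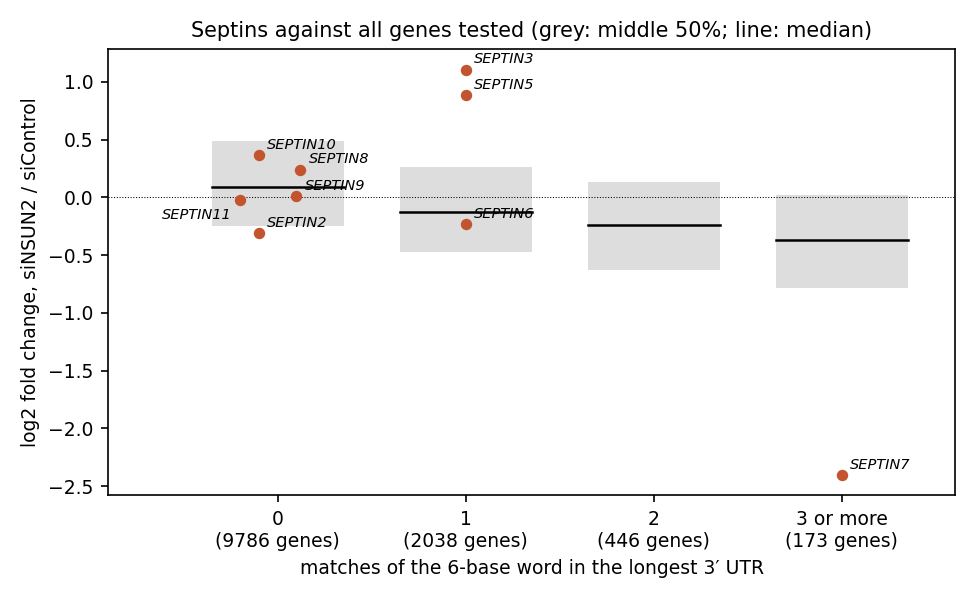
Log2 fold change of the 9 septins (red points) by the number of matches of the 6-base word in the longest 3′ UTR, over the middle 50% (grey boxes) and the median (black lines) of all genes tested with that number. The median goes from 0.09 with 0 matches to −0.37 with 3 or more, and SEPTIN7 lies at −2.40, below its box, which runs from −0.79 to 0.02.

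The genes most like SEPTIN7 over the 4 libraries were taken as those with the smallest Euclidean distance in centred log2 CPM, among 9701 genes with an average log2 CPM of at least 3. MRPS14, a protein of the mitochondrial ribosome, came first at a distance of 0.028, with 34.0 and 34.9 CPM in siControl and 6.36 and 6.60 CPM in siNSUN2. VTA1, a cofactor of the VPS4 ATPase of the ESCRT pathway, was next at 0.108, with 141 and 143 against 27.0 and 29.8 CPM. LRRC8B, a subunit of volume-regulated anion channels, was the third at 0.160, with 68.9 and 68.4 against 13.1 and 11.7 CPM. The 3′ UTRs of MRPS14, VTA1 and LRRC8B hold 1, 4 and 0 matches of the word. With 4 libraries in 2 groups, this likeness is little more than a like fold change.

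Genes whose products work with septins were read from 5 lists written with earlier results of these data known. Of 55 genes listed, 54 were found in the table and 53 were tested: 16 rose (30.2%), 19 fell (35.8%) and 18 did not pass, with a median log2 fold change of −0.02, against 27.1%, 25.5% and 0.03 over all genes tested. The lists therefore showed no common direction, and the lowest value among them was −0.60, for EXOC2. For the list counts given below with the offsets, 3752 genes rose and 3912 fell over the whole table, against 4573 and 4307 without the offsets. The fit with the offsets covers only genes that have a GC content and a length, 96.4% of those tested.

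CDC42 and its Borg effectors (CDC42EP1 to CDC42EP5), which bind septins and link them to the GTPase, were mixed: of 5 tested, 2 rose, 1 fell and 2 did not pass. CDC42EP3 fell from 69.3 ± 0.134 to 50.8 ± 1.35 CPM (mean ± SD, n = 2, as for all genes of these lists; −0.45 on the log2 scale, SE 0.043, adjusted p = 2.04e-05). CDC42EP1 rose from 73.9 ± 1.07 to 94.1 ± 5.33 CPM (0.35 on the log2 scale, SE 0.049, adjusted p = 2.37e-04). With the offsets CDC42EP1 was called lower, at −0.32, and 0 of the list rose and 3 fell.

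The contractile ring list, which includes anillin, myosin II and centralspindlin, is the longest, at 22 genes. It also had the largest share of falls among the lists: 10 fell (45.5%), 5 rose (22.7%) and 7 were not called. Over all genes tested, 25.5% fell and 27.1% rose, and the difference in share was not tested. The list had a median of −0.05 on the log2 scale. RACGAP1, a centralspindlin subunit, fell from 165 ± 0.971 to 110 ± 6.20 CPM (−0.59 on the log2 scale, SE 0.048, adjusted p = 6.71e-06). MYH9, the heavy chain of nonmuscle myosin IIA, rose from 1555 ± 1.07 to 2134 ± 53.1 CPM (0.46 on the log2 scale, SE 0.041, adjusted p = 1.36e-05), and its log2 fold change was −0.0014 with the offsets. ANLN, which encodes anillin, the scaffold that recruits septins to the ring, had 254 and 251 CPM in siControl and 256 and 238 CPM in siNSUN2 and was not called (log2 fold change −0.03, SE 0.045, adjusted p = 0.630). With the offsets 6 genes of this list fell. Those that fell over the whole table went from 4307 to 3912, the second count being over the smaller set of genes with a GC content and a length. These are counts, and shares with the offsets were not worked out. Without siControl replicate 1 or with DESeq2 3 of the list rose.

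Of 12 abscission genes, which cut the bridge between daughter cells, 5 rose, 4 fell and 3 did not pass. CEP55, the midbody protein that recruits this machinery, fell from 243 ± 9.36 to 173 ± 3.70 CPM (−0.50 on the log2 scale, SE 0.043, adjusted p = 1.12e-05, and −0.24 with the offsets). CHMP6, an ESCRT-III subunit, rose from 15.4 ± 0.257 to 27.8 ± 0.173 CPM (0.85 on the log2 scale, SE 0.059, adjusted p = 2.61e-06, and 0.26 with the offsets). The number that fell was 1 without siNSUN2 replicate 2, with no low-count filter or with the offsets.

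Of the 9 exocyst genes, whose complex tethers secretory vesicles, 3 rose, 3 fell and 3 did not pass. EXOC2 fell from 74.6 ± 2.20 to 49.3 ± 1.09 CPM (−0.60 on the log2 scale, SE 0.045, adjusted p = 4.28e-06), and EXOC7 rose from 149 ± 3.06 to 211 ± 8.57 CPM (0.50 on the log2 scale, SE 0.044, adjusted p = 1.16e-05, and 0.14 with the offsets). With the offsets 5 exocyst genes rose and 2 fell.

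Of the 5 tested septin-binding adaptors, SH3KBP1 fell from 183 ± 4.28 to 159 ± 2.63 CPM (−0.20 on the log2 scale, SE 0.040, adjusted p = 0.00246, and −0.12 with the offsets). ARHGEF18, a guanine nucleotide exchange factor, rose from 27.0 ± 2.22 to 38.9 ± 0.789 CPM (0.52 on the log2 scale, SE 0.064, adjusted p = 1.06e-04), a call that the offsets ended (0.03, adjusted p = 0.716). MAP4, NCK1 and NCK2 did not pass. With the offsets 0 of these 5 rose and 2 fell. In single-library checks, 2 fell without siControl replicate 1 or without siNSUN2 replicate 1, and 2 rose without siNSUN2 replicate 2.

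**Figure D5:**
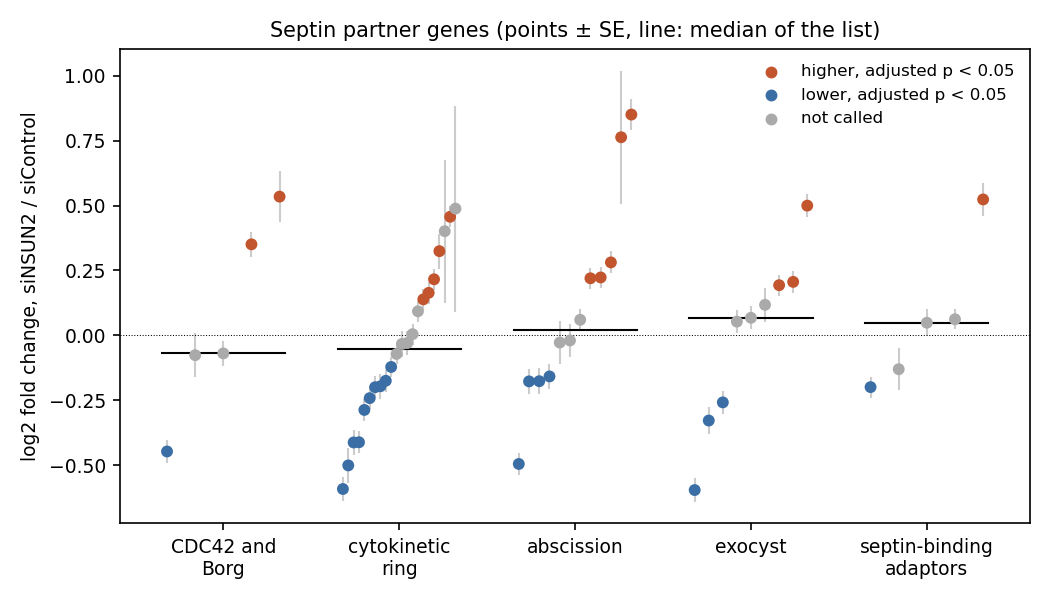
Log2 fold change of each tested partner gene with bars of 1 SE, by list, coloured by the call of edgeR's quasi-likelihood test, with the median of each list as a line. Every list holds genes above and below 0, and every value lies between −0.60 and 0.85.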

How the data were processed

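The authors deposited raw read counts by Ensembl gene ID, a column for each library. HISAT2, HTSeq and build hg19 stand in the submitters' processing notes, and the sources used here do not give versions, annotation or strand setting. Libraries were stranded, from poly(A) RNA, and read as pairs, per the labels' protocols.

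The counts were tested with edgeR 4.0.16 in R 4.3.3 (quasi-likelihood F-test, robust, TMM factors, filterByExpr, no replicate block), two-sided, with Benjamini-Hochberg adjustment over 16889 genes and a threshold of 0.05. Standard errors follow from fold change and F value. The test was checked on simulated counts with the same replicate variation for all genes and no trend with GC content. That is a simpler setting than these data. Symbols came from a table of gene names and GENCODE release 29, which gave lengths, GC content and 3′ UTRs by gene ID. Its build, GRCh38, is not that of the counts, and coordinates are from it alone. Replicates differed beyond sampling noise, with a chi-square of 18.8 (siControl) and 12.4 (siNSUN2) per degree of freedom. Groups came from the sample titles. With 2 libraries a group, no permutation test of single values can reach the threshold.

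Members and lists were chosen with earlier results of these data known. Named were all members, the 2 partner genes of each list with the smallest p, other SEPTIN rows with a mean of at least 0.5 CPM, and the 3 genes most like SEPTIN7. HDLBP, GP1BB, ANLN, VDAC1 and SEPTIN7P6 were named after their values were seen. Alternatives were DESeq2 1.42.0, RLE factors, other filters, a replicate block, leaving out each library, libraries thinned to 33633249 counts, and loess offsets on GC content and length (span 0.3). Length over all annotated exons was added after seeing the data.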

Additional observations from a re-analysis of the deposited data

How the results depend on the processing

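Over 12 alternatives, SEPTIN7 had a log2 fold change of −2.47 to −2.15: it moved by more than the spread between replicates only with GC and length offsets (−2.15, also with the replicate block) and without siControl replicate 1. With 1 library left out, it ran from −2.47 to −2.39. In the fit without siControl replicate 1, where it was −2.47, log2 fold changes over the genes of both fits shifted by a median of −0.0669. Leaving out a library leaves a group of 1, which is assumed to vary like the other group. The calls of SEPTIN2, SEPTIN3, SEPTIN6, SEPTIN8 and SEPTIN10 held under every alternative that tested them. SEPTIN3 and SEPTIN5 drop out when a mean of 5 CPM is required, where 2 of the other septins rose.

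SEPTIN9 turned to −0.014 with DESeq2, to −0.0065 with RLE factors and, with 1 library left out, ran from −0.053 to 0.044. It turned to −0.46 with the offsets, with or without the replicate block. SEPTIN11 turned to 0.16 with the offsets, with or without the replicate block. In the same pair of fits CDC42EP1 turned to −0.32 and −0.33, MYH9 to −0.0014 and −0.0013, SEPTIN7P2 to 0.13 and SEPTIN7P14 to 0.14. SEPTIN7P2 also turned to 0.0078 with no low-count filter and ran from −0.14 to 0.13 with 1 library left out. Against the fit used for the calls, the median shift in log2 fold change over the genes of both fits was −0.0273 with DESeq2 and −0.0196 with RLE factors. It was −0.0669 without siControl replicate 1, −0.0183 without siControl replicate 2, −0.017 without siNSUN2 replicate 1 and 0.0235 without siNSUN2 replicate 2. With no low-count filter it was 0.0186, and with the offsets 0.0433. The cause of the turns was not tested.

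With the replicate number as a block, 5027 genes rose and 4788 fell, and 4 of the other septins rose and 2 fell. Libraries of the same number share only that number: the correlation of their deviations from the group means was 0.088 across 9661 genes. SEPTIN3, SEPTIN5 and the sparse pseudogenes are limited by depth.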
